A study of Mus musculus with 13 samples.

Results

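The genes described here are 42 mouse genes of the mitotic spindle and cell division, chosen by name for their role in mitosis out of the 46679 gene IDs measured. All 42 symbols were matched to a gene ID, and each gene is annotated as protein coding. RNA was sequenced from 3 tumors, 4 lungs of tumor-bearing mice and the lungs of 4 normal mice without tumor. The mice were female FVB mice, 10 weeks old when tissue was taken. Tumors had been grown for 2 weeks from 250000 cells of Met1, a mouse breast cancer line, placed in the inguinal mammary fat pad, so that all tumors come from 1 line and also hold cells of the host. The tumor-bearing lungs come from mice with such a distal tumor, and the labels do not say whether tumor cells had reached the lung. Mice 6877, 6880 and 6881 gave both a tumor and a lung, mouse 6879 gave a lung, and mice 6886, 6887, 6888 and 6893 gave the normal lungs. The labels give 2 preparation batches: the 3 tumors, the tumor-bearing lung of mouse 6877 and the normal lungs of mice 6887 and 6893 were prepared in batch 2, the other 3 tumor-bearing lungs in batch 1, and the normal lungs of mice 6886 and 6888 in both.

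A dividing cell enters mitosis when Cdk1 bound to cyclin A or cyclin B phosphorylates its targets. Microtubules then form a spindle, attach to the kinetochore that is built on the centromere of each chromosome, and pull the sister chromatids apart once a checkpoint has sensed that all are attached. The anaphase promoting complex, a ubiquitin ligase, ends this phase by marking cyclin B and securin for destruction, and cytokinesis then splits the cell. The mRNAs of these genes are made mainly in G2 and mitosis and are low in cells that have left the cycle, so their sum in a tissue is widely read as a sign of how much of it is dividing. Most cells of an adult lung are at rest, whereas mammary tumor cells cycle. In these bulk tissues, fewer dividing cells and less of these RNAs per dividing cell cannot be told apart.

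Many promoters of this kind carry a cell cycle genes homology region (CHR, letters TTTGAA) close to the transcription start with a CCAAT box, the site of the factor NF-Y, a short way before it, and the DREAM, MuvB and Foxm1 complexes are known to act through the CHR. RefSeq promoter sequences of build GRCm38.p6, 250 bases before to 50 bases after each start, were at hand for 34 of the 42 genes. Of these, 5 are shown because their CHR lies before the start beside CCAAT boxes, and Birc5 is shown as the contrast because its window holds neither set of letters. Each line gives the 150 bases before a RefSeq start, 5′ to 3′ on the gene's strand, with CHR letters and CCAAT letters of either strand in capitals (TTTGAA or TTCAAA, and CCAAT or ATTGG).
Cdk1, chr10:69352913-69353062, minus strand: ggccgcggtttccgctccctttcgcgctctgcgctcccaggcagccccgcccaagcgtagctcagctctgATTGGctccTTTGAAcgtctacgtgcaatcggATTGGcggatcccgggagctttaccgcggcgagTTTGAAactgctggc
Cdc20, chr4:118437344-118437493, minus strand: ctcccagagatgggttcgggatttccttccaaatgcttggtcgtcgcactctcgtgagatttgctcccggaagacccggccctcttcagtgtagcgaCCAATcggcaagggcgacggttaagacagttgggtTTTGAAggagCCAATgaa
Prc1, chr7:80294326-80294475, plus strand: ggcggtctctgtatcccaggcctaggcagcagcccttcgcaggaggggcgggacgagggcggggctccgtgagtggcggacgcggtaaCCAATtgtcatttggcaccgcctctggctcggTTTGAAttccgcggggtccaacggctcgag
Top2a, chr11:99024190-99024339, minus strand: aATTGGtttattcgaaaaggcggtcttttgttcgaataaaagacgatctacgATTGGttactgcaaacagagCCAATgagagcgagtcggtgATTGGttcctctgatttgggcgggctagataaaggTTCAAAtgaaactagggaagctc
Mki67, chr7:135716380-135716529, minus strand: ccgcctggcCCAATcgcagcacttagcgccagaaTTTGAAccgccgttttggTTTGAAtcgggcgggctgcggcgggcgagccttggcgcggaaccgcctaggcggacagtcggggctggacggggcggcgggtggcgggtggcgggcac
Birc5, chr11:117849087-117849236, plus strand: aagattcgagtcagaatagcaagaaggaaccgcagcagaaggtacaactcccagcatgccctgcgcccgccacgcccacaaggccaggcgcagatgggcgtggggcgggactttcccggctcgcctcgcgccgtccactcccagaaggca
With the first transcribed base counted as 0, the CHR of Cdk1 stood at 71 and 15 bases before the start. In Cdc20 it stood 18 bases before the start, between CCAAT letters on either side.

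Over both strands of these windows, TTTGAA was found in 26 of the 34 genes (76.5%), against 20.2% of all 27025 genes with a promoter sequence. Within 50 bases of the start it was found in 24 of the 34 (70.6%), against 5.72% of all genes. CCAAT was found in 26 of the 34 (76.5%), against 41.1% of all genes, and CCAAT together with TTTGAA in 23 (67.6%), against 8.97%. The GC box GGGCGG was found in 28 of the 34 (82.4%), against 38.2% of all genes. TATAAA was found in 1 member, Kif2c (2.94%, against 15.7% of all genes), and the E2F letters TTTCCCGC, TTTGGCGC, TTTCGCGC or TTTGCCGC also in 1, Cdk1 (2.94%, against 2.6%). The 8 members without TTTGAA in the window were Ccnb1, Birc5, Bub1, Mad2l1, Pttg1, Cenpe, Nuf2 and Nusap1. A gene with several RefSeq starts was counted as holding a motif when any of its windows held it, and a match of letters is a description, not a site at which a factor was measured. The 8 members without an entry are Ccna2, Cdc25c, Foxm1, Tpx2, Aurkb, Incenp, Spc24 and Kif20a.

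**Figure D1:**
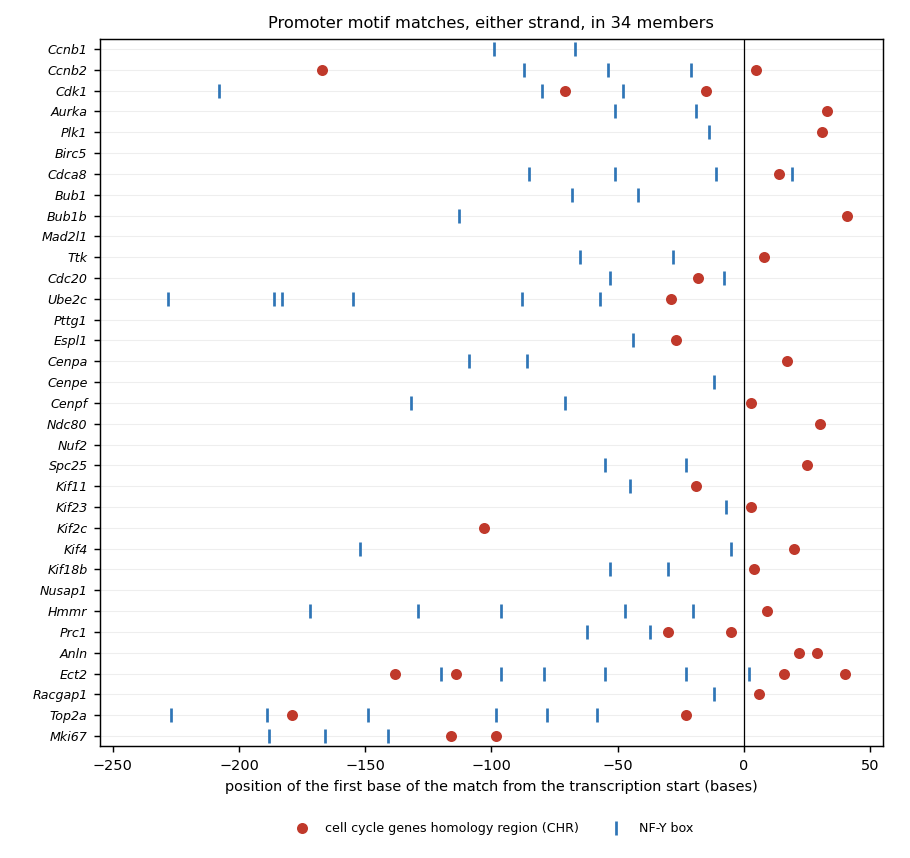
Positions of CHR letters (red points) and of NF-Y box letters (blue bars) on either strand, in bases from the RefSeq transcription start, for the 34 members with a promoter sequence, in the order of their roles. In 24 of them a CHR match lies within 50 bases of the start, and 5 rows (Birc5, Mad2l1, Pttg1, Nuf2 and Nusap1) are empty.

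Libraries held 8321037 to 13982903 estimated counts, and marker lists of cell types were read against the labels of the tissues. The summed level of 10 lung epithelial markers was 0.357 to 4.64 TPM (a level per length) in tumors, 1230 to 3351 TPM in tumor-bearing lungs and 3219 to 4222 TPM in normal lungs, and all 10 fell in tumors against both lung groups. Mammary epithelial and luminal markers, 12 genes, summed to 163 to 272 TPM in tumors, 12.3 to 27.9 TPM in tumor-bearing lungs and 23.4 to 60.4 TPM in normal lungs. Against normal lung 9 of the 12 rose in tumors and 2 fell, the keratins Krt19 (-4.27) and Krt7 (-1.13). Lcn2 (93.2 to 127 TPM) and Csn3 (26.9 to 53.5 TPM) carried most of the sum in tumors. Macrophage markers summed to 16.2 to 29.1 TPM, 2.15 to 7.82 TPM and 6.24 to 10.2 TPM in the same order of groups, and endothelial markers to 1.54 to 2.4 TPM, 32.5 to 73.4 TPM and 42.8 to 129 TPM. The macrophage sum in tumors was carried by C1qa (7.7 to 16.1 TPM) and C1qb (4.42 to 8.47 TPM); of its 8 genes 3 rose and 2 fell against normal lung, Siglecf (-5.92) and Marco (-2.83), with a median of -0.0013. These genes were named after their values were seen. The sums of the 4 lists did not overlap between tumors and lungs, and the part of these cell types in the values below was not tested.

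All 42 members were higher in every tumor than in every lung library. Against normal lung, all 42 rose in tumors past an adjusted p of 0.05, with a median log2 fold change of 3.70 (range 2.12 in Nusap1 to 6.97 in Birc5); of all 18297 genes tested, 24.5% were called higher, 24.7% lower, and the median log2 fold change was -0.04. Against tumor-bearing lung, 41 of the 42 rose, with a median log2 fold change of 3.53 (range 0.99 in Ttk to 6.45 in Birc5), where 22.6% of all genes tested were called higher, 23.7% lower, and the median was -0.10. The exception was Ttk, which passed in the fits with mouse as a block over all 13 libraries. The lowest tumor exceeded the highest of the 10 lung libraries by 1.97-fold in Cenpf to 66.7-fold in Birc5, and it did so for 22.6% of all genes compared; 35 of the 42 passed 3-fold, where 4.25% of all genes did, and 11 passed 10-fold, where 1.00% did. Both comparisons use the same 3 tumors, and their fits draw on 11 libraries with preparation batch as a term. Within batch 2 alone, all 42 rose against the normal lungs of 4 mice with a median of 3.75, and the median against the lone tumor-bearing lung of that batch was 3.94. That second value sets the tumors against 1 library and is given without a test.

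**Figure D2:**
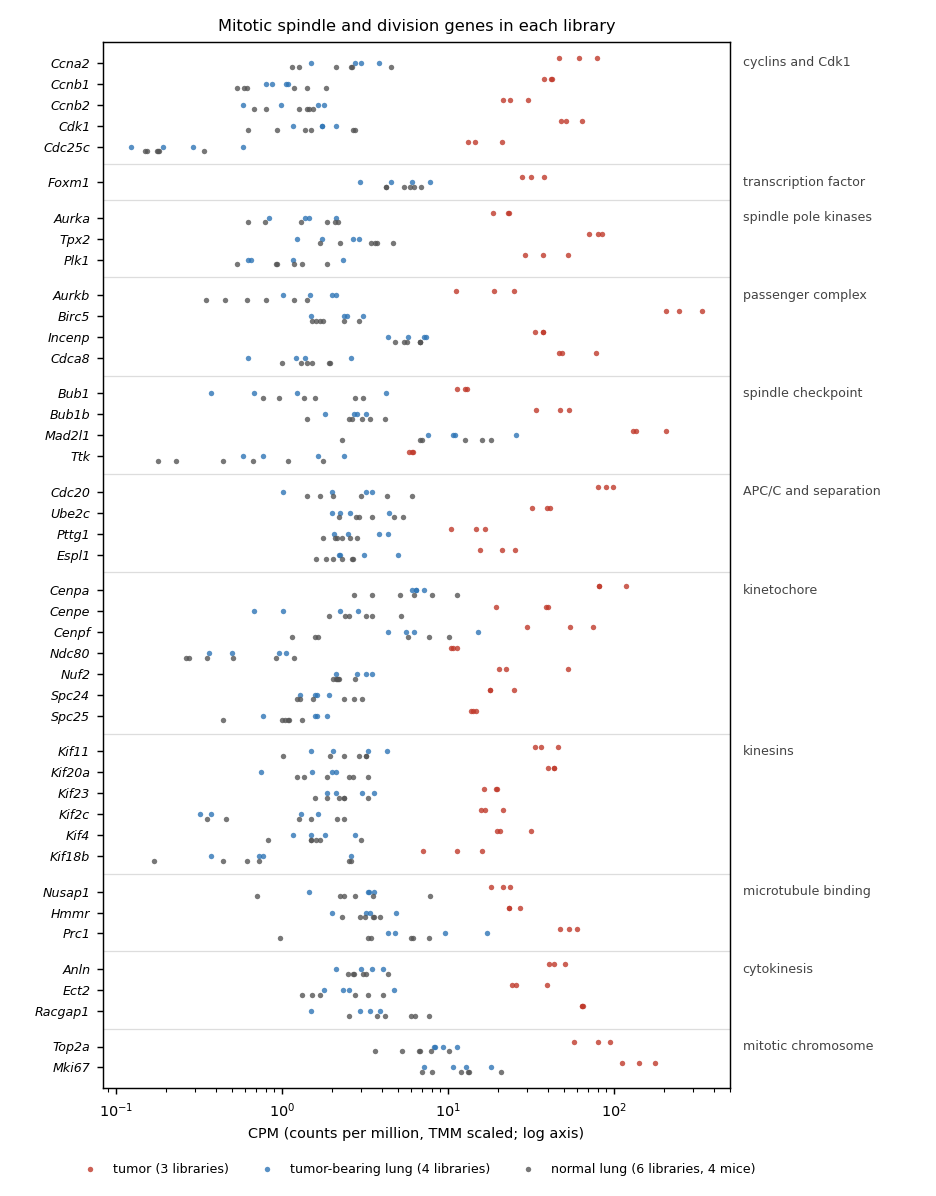
CPM (counts relative to library size, log axis) of each member in each library, with tumors in red, tumor-bearing lungs in blue and normal lungs in grey, and genes grouped by role. The red points of every gene lie right of its blue and grey points, with the narrowest gap in Cenpf (1.97-fold) and the widest in Birc5 (66.7-fold), while blue and grey points mix.

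As a whole, the members averaged 5.10, 5.19 and 5.01 log2 CPM in the tumors of mice 6877, 6880 and 6881. The mean was 1.48, 1.09, 1.49 and 1.17 log2 CPM in the tumor-bearing lungs of mice 6877, 6879, 6880 and 6881, and 1.47, 1.08, 0.75 and 1.44 log2 CPM in the normal lungs of mice 6886, 6887, 6888 and 6893. The 3 tumors thus lay close to each other, and the lung groups overlapped. Summed per length, the 42 genes made up 86 to 115 TPM in tumors, 3.3 to 6.96 TPM in tumor-bearing lungs and 4.38 to 11.6 TPM in normal lungs. Single members had 49 to 3181 counts in a tumor library and 1 to 356 counts in a lung library, so the lung values carry the larger counting error. In the paragraphs on roles below, values of tumors are given in the order of mice 6877, 6880 and 6881, those of tumor-bearing lungs in the order of mice 6877, 6879, 6880 and 6881, and those of normal lungs in the order of mice 6886, 6887, 6888 and 6893, with the batch 1 library of mice 6886 and 6888.

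The kinase that starts mitosis and its cyclins rose by a median log2 fold change of 4.81 against tumor-bearing lung and 5.16 against normal lung, with all 5 of the group called in both. Cdk1, the mitotic kinase itself, had 63.9, 51.3 and 48 CPM in tumors, 1.16, 1.74, 2.12 and 1.74 CPM in tumor-bearing lungs and 1.38, 0.932, 0.622 and 2.74 CPM in normal lungs. Its lowest tumor was 17.6-fold above its highest lung library, and its log2 fold change was 4.81 (SE 0.53, adjusted p = 2.24e-05) against tumor-bearing lung and 5.16 (SE 0.44, adjusted p = 2.26e-06) against normal lung. Ccnb1, the cyclin B that activates Cdk1 at mitotic entry, had 42.1, 42.3 and 38.1 CPM in tumors, 1.06, 0.87, 1.09 and 0.797 CPM in tumor-bearing lungs and 1.84, 0.593, 0.533 and 1.19 CPM in normal lungs. The tumors were close in value in Ccnb1 (coefficient of variation 5.78%, near the counting error of 352 to 542 counts). Its log2 fold change was 5.52 (SE 0.46, adjusted p = 2.72e-06) against tumor-bearing lung and 5.36 (SE 0.42, adjusted p = 1.09e-06) against normal lung. Cdc25c, a phosphatase that removes the brake on Cdk1, was the lowest member in lungs, at 0.0119 TPM in tumor-bearing and 0.011 TPM in normal lungs on average, and rose by 5.62 and 6.19 on the log2 scale, after Birc5 the second largest change against each lung group. Ccna2 and Ccnb2, the cyclins A and B that act with Cdk1, rose by 4.14 to 4.97 in the same 2 comparisons.

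Foxm1, the transcription factor that drives many G2 and mitosis genes, differed less than most other members. It had 27.9, 37.8 and 31.9 CPM in tumors, 4.54, 7.83, 6.11 and 2.97 CPM in tumor-bearing lungs and 6.29, 4.23, 5.95 and 5.47 CPM in normal lungs. The groups of lungs overlapped and every tumor lay above them, with a log2 fold change of 2.85 (SE 0.37, adjusted p = 7.03e-05) against tumor-bearing lung and 2.73 (SE 0.33, adjusted p = 3.28e-05) against normal lung. Foxm1 shares exon sequence with Tex52 and Gm44596 on the same strand, so its count may include reads of these genes.

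The spindle pole kinases and their activator all rose. Tpx2, which activates Aurora A on spindle microtubules, had 80, 70.5 and 84.6 CPM in tumors, 2.9, 1.24, 2.7 and 1.74 CPM in tumor-bearing lungs and 4.68, 1.69, 3.73 and 3.65 CPM in normal lungs. That is a log2 fold change of 5.26 (SE 0.42, adjusted p = 1.93e-06) against tumor-bearing lung and 4.58 (SE 0.39, adjusted p = 2.23e-06) against normal lung, with tumors close to each other (coefficient of variation 9.14%). Plk1, the Polo-like kinase of spindle assembly and mitotic entry, had 37.6, 52.8 and 29.3 CPM in tumors, 2.32, 0.622, 1.16 and 0.652 CPM in tumor-bearing lungs and 0.921, 0.932, 0.533 and 1.19 CPM in normal lungs. Its tumor of mouse 6880 was the highest, and the log2 fold change was 4.40 (SE 0.43, adjusted p = 8.03e-06) against tumor-bearing lung and 5.0 (SE 0.39, adjusted p = 1.09e-06) against normal lung. Aurka, the Aurora A kinase, rose by 3.24 and 3.45 on the log2 scale.

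The chromosomal passenger complex corrects wrong attachments of kinetochores and later acts in cytokinesis, and it held both a very large and a small change. Birc5 (survivin), its subunit that binds the centromere, had 338, 248 and 206 CPM in tumors, 3.09, 1.49, 2.38 and 2.46 CPM in tumor-bearing lungs and 1.61, 1.69, 1.51 and 2.37 CPM in normal lungs. No other member rose as much: Birc5 was 87.6-fold higher in tumors than in tumor-bearing lung and 126-fold higher than in normal lung. Its log2 fold change was 6.45 (SE 0.33, adjusted p = 6.25e-08) against tumor-bearing lung and 6.97 (SE 0.29, adjusted p = 1.66e-08) against normal lung. It was also the member with the highest level per length in tumors, 13 ± 4.46 TPM (SD, n = 3), while its lung means were 0.103 TPM in tumor-bearing and 0.114 TPM in normal lungs, below those of Cenpa and Mad2l1. Birc5 lies on chromosome 11 from 117849251 to 117855743 (GRCm38, plus strand), and no other annotated gene shares its exons. Cdca8 (borealin), which holds the complex together with Birc5, had 78, 46.5 and 48.6 CPM in tumors, 2.61, 0.622, 1.22 and 1.38 CPM in tumor-bearing lungs and 1.3, 1.52, 1.95 and 1 CPM in normal lungs. The tumor of mouse 6877 stood above the other two in both genes, and the log2 fold change of Cdca8 was 5.02 (SE 0.46, adjusted p = 5.45e-06) against tumor-bearing lung and 5.09 (SE 0.44, adjusted p = 2.32e-06) against normal lung. Incenp, the scaffold of the complex, rose by 2.52 (SE 0.28) and 2.49 (SE 0.26) on the log2 scale. Aurkb, the kinase of the complex, rose by 3.21 against tumor-bearing lung and 4.38 against normal lung.

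Among the spindle checkpoint genes, which hold back the anaphase promoting complex until all kinetochores are attached, 3 of 4 rose against tumor-bearing lung and 4 of 4 against normal lung. Mad2l1, the checkpoint protein that binds Cdc20, had 131, 205 and 136 CPM in tumors, 7.63, 10.8, 11.1 and 25.8 CPM in tumor-bearing lungs and 12.7, 6.77, 2.31 and 16.1 CPM in normal lungs. The tumor-bearing lung of mouse 6881 was the highest lung library of this gene, and the log2 fold change was 3.54 (SE 0.77, adjusted p = 0.00263) against tumor-bearing lung and 4.07 (SE 0.64, adjusted p = 0.000275) against normal lung. Bub1b, which binds and holds Cdc20 with Mad2l1, had 47.3, 34.1 and 54 CPM in tumors, 2.71, 3.23, 2.83 and 1.81 CPM in tumor-bearing lungs and 2.53, 3.05, 1.42 and 3.38 CPM in normal lungs. The lung groups overlapped, and the log2 fold change of Bub1b was 3.77 (SE 0.37, adjusted p = 9.91e-06) against tumor-bearing lung and 3.92 (SE 0.32, adjusted p = 1.67e-06) against normal lung. Ttk, the kinase at the head of the checkpoint, had 5.87, 6.16 and 6.08 CPM in tumors, 1.64, 2.36, 0.772 and 0.58 CPM in tumor-bearing lungs and 0.23, 1.78, 0.178 and 1.09 CPM in normal lungs. Its 3 tumors were all above every lung library and close in value (coefficient of variation 2.56%). That spread is below the counting error of 49 to 79 counts, so it does not measure how alike the tumors are. After the batch term the log2 fold change of Ttk against tumor-bearing lung was 0.99 (SE 0.77, adjusted p = 0.31). It was -0.41 without the tumor-bearing lung of mouse 6877, the only one prepared in the same batch as the tumors. Mouse as a block pairs tumors and lungs of the same animals, and those fits used all 13 libraries where the main fit used 11. There Ttk rose against tumor-bearing lung by 1.81 (SE 0.46, adjusted p = 0.0168, fixed block in edgeR) or 1.60 (SE 0.55, adjusted p = 0.0253, random block in voom). The part of the pairing in this change was not tested. With the repeat libraries of mice 6886 and 6888 summed, Ttk was at 1.28 (adjusted p = 0.119, edgeR), and it passed with no batch term and on log2(TPM) scales. Against normal lung Ttk rose by 2.40 (SE 0.59, adjusted p = 0.00512). Bub1, which recruits the other checkpoint proteins to the kinetochore, rose by 3.10 (SE 0.92, adjusted p = 0.0164) against tumor-bearing lung and 2.77 (SE 0.74, adjusted p = 0.00865) against normal lung. Its adjusted p against tumor-bearing lung was 0.136 without the tumor-bearing lung of mouse 6877 and 0.0541 without the normal lung of mouse 6888.

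All 4 genes of the anaphase promoting complex and of chromatid separation rose against both lung groups. Cdc20, the activator of the complex in mitosis, had 99.5, 89.6 and 80.3 CPM in tumors, 3.48, 1.99, 3.22 and 1.01 CPM in tumor-bearing lungs and 6.06, 2.03, 1.69 and 4.29 CPM in normal lungs. The tumors lay at least 13.3-fold above every lung library, with a log2 fold change of 5.11 (SE 0.58, adjusted p = 2.63e-05) against tumor-bearing lung and 4.58 (SE 0.53, adjusted p = 2.63e-05) against normal lung. Ube2c, the ubiquitin-conjugating enzyme that works with the complex, had 39.4, 41.3 and 32.2 CPM in tumors, 4.44, 1.99, 2.57 and 2.25 CPM in tumor-bearing lungs and 4.76, 3.47, 2.22 and 2.92 CPM in normal lungs. The lung groups overlapped, and the log2 fold change was 3.49 (SE 0.37, adjusted p = 1.59e-05) against tumor-bearing lung and 3.29 (SE 0.35, adjusted p = 1.2e-05) against normal lung. Pttg1 (securin), which inhibits separase until it is destroyed, rose by 2.40 and 2.68, and Espl1 (separase), which cuts cohesin, by 2.98 and 3.38. Espl1 had the lowest level per length of the members in tumors, 0.235 ± 0.0304 TPM (SD, n = 3).

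The 7 centromere and kinetochore genes also rose in both comparisons, by a median of 3.52 against tumor-bearing lung and 3.57 against normal lung. Cenpa, the histone H3 variant that marks the centromere, had 119, 81.2 and 81.8 CPM in tumors, 6.09, 6.46, 7.14 and 6.45 CPM in tumor-bearing lungs and 6.29, 8.05, 5.15 and 11.3 CPM in normal lungs. It had the highest level per length of the members in normal lungs, 0.963 TPM, and rose by 3.52 (SE 0.31, adjusted p = 4.29e-06) against tumor-bearing lung and 3.43 (SE 0.27, adjusted p = 1.1e-06) against normal lung. Spc25, a subunit of the Ndc80 complex that grips microtubules, had 14.2, 14.7 and 13.7 CPM in tumors, 0.773, 1.62, 1.87 and 1.59 CPM in tumor-bearing lungs and 0.997, 1.1, 0.444 and 1.09 CPM in normal lungs. The tumors were close in value (coefficient of variation 3.34%, below the counting error of 119 to 188 counts). The log2 fold change of Spc25 was 3.35 (SE 0.50, adjusted p = 0.000213) against tumor-bearing lung and 3.99 (SE 0.41, adjusted p = 1.09e-05) against normal lung. The other subunits of that complex, Ndc80, Nuf2 and Spc24, rose by 3.36 to 4.33. Nuf2 was the member that varied most between tumors (coefficient of variation 57.2%), at 53, 22.5 and 20.4 CPM. Cenpf, a large kinetochore protein, came next among the kinetochore genes (42.3%), at 29.9, 54.6 and 74.7 CPM in tumors and 15.2, 4.35, 6.24 and 5.58 CPM in tumor-bearing lungs, and the lung of mouse 6877 was its highest lung library. Its log2 fold change against tumor-bearing lung was 2.51 (SE 0.76, adjusted p = 0.0178). The call was lost without the tumor of mouse 6881 (2.19, adjusted p = 0.0508), and the log2 fold change was 1.86 against the lung of mouse 6877 alone, within batch 2, an arm of 1 library with no test. Cenpe, the kinesin that moves chromosomes to the spindle centre, rose by 4.43 and 3.57.

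Of the kinesins, the motors that build the spindle and move chromosomes, all 6 rose in both comparisons. Kif2c, which takes microtubules apart at the kinetochore, had 15.9, 21.5 and 16.7 CPM in tumors, 1.64, 0.373, 0.322 and 1.3 CPM in tumor-bearing lungs and 0.46, 1.27, 0.355 and 2.37 CPM in normal lungs. Its lung values ran over a wide range in both lung groups, and the log2 fold change was 3.11 (SE 0.59, adjusted p = 0.00113) against tumor-bearing lung and 3.44 (SE 0.48, adjusted p = 0.000108) against normal lung. Kif20a, a motor of the central spindle in cytokinesis, had 40.3, 43.7 and 43.7 CPM in tumors, 2.13, 0.746, 1.99 and 1.52 CPM in tumor-bearing lungs and 2.69, 1.35, 1.87 and 3.28 CPM in normal lungs. The tumors were close in value (coefficient of variation 4.59%, near the counting error of 337 to 561 counts). The log2 fold change of Kif20a was 4.52 (SE 0.43, adjusted p = 6.53e-06) against tumor-bearing lung and 4.08 (SE 0.38, adjusted p = 4.73e-06) against normal lung. Its exons overlap those of Cdc23 on the other strand. Kif11, which pushes the spindle poles apart, Kif4, a motor bound to chromosomes, and Kif23, a subunit of centralspindlin, rose by 2.75 to 4.40. Kif18b, which shortens astral microtubules, had the least certain call against normal lung, 3.39 (SE 0.95, adjusted p = 0.0107); the adjusted p was 0.0551 without the normal lung of mouse 6887 and 0.0747 without that of mouse 6893. Against tumor-bearing lung Kif18b rose by 3.24 (SE 0.89, adjusted p = 0.0105), and the log2 fold change against the lung of mouse 6877 alone, within batch 2, was 2.19, again with no test. With the batch 2 libraries of mice 6886 and 6888 in place of their batch 1 libraries, Cenpf was at 1.82 and Kif18b at 2.15 against tumor-bearing lung, and both calls were lost (adjusted p = 0.0899 and 0.107); there the batch term leaves that 1 lung to carry the comparison.

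The proteins that bind and bundle spindle microtubules rose as well, with a median of 2.12 against tumor-bearing lung and 2.91 against normal lung over 3 genes. Prc1, which crosslinks the microtubules of the central spindle, had 47.2, 53.8 and 60.2 CPM in tumors, 17.1, 4.35, 9.65 and 4.78 CPM in tumor-bearing lungs and 7.67, 3.3, 0.977 and 6.02 CPM in normal lungs. The lung of mouse 6877 was its highest lung library, and the log2 fold change was 2.12 (SE 0.62, adjusted p = 0.0156) against tumor-bearing lung and 3.17 (SE 0.62, adjusted p = 0.00126) against normal lung. Nusap1, which binds microtubules near chromosomes, had 23.7, 18.1 and 21.4 CPM in tumors, 3.29, 3.36, 3.6 and 1.45 CPM in tumor-bearing lungs and 2.76, 3.56, 0.711 and 7.85 CPM in normal lungs. Its tumor values were close to each other and its lung values spread from 0.711 to 7.85 CPM; it rose by 1.99 (SE 0.64, adjusted p = 0.0237) against tumor-bearing lung and 2.12 (SE 0.52, adjusted p = 0.00484) against normal lung. The call of Nusap1 against tumor-bearing lung was lost without the tumor of mouse 6877 (adjusted p = 0.0521), the tumor-bearing lung of mouse 6877 (0.244) or the normal lung of mouse 6886 (0.0773). Hmmr, which binds the spindle through Tpx2, rose by 2.78 and 2.91.

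All 3 cytokinesis genes rose. Racgap1, which with Kif23 forms centralspindlin and recruits Ect2, had 64.4, 65 and 64.6 CPM in tumors, 3.38, 1.49, 2.96 and 3.91 CPM in tumor-bearing lungs and 7.67, 3.73, 4.17 and 6.02 CPM in normal lungs. It had the lowest coefficient of variation between tumors of the members (0.483%), which is below the counting error of 538 to 833 counts. Racgap1 rose by 4.48 (SE 0.40, adjusted p = 3.99e-06) against tumor-bearing lung and 3.61 (SE 0.35, adjusted p = 6.85e-06) against normal lung. Ect2, which activates RhoA for the contractile ring, had 24.3, 39.4 and 25.8 CPM in tumors, 2.32, 4.72, 1.8 and 2.54 CPM in tumor-bearing lungs and 2.76, 1.52, 1.69 and 3.28 CPM in normal lungs. The lung groups overlapped, and the log2 fold change was 3.47 (SE 0.50, adjusted p = 0.000152) against tumor-bearing lung and 3.71 (SE 0.43, adjusted p = 2.74e-05) against normal lung. Anln, the scaffold of the contractile ring, rose by 3.93 and 3.89.

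Both genes of the mitotic chromosome rose. Top2a, the topoisomerase that untangles sister chromatids, had 57.5, 95 and 80 CPM in tumors, 8.41, 11.4, 8.24 and 9.35 CPM in tumor-bearing lungs and 10.2, 6.69, 3.64 and 7.94 CPM in normal lungs. It rose by 3.08 (SE 0.40, adjusted p = 7.03e-05) against tumor-bearing lung and 3.45 (SE 0.35, adjusted p = 9.58e-06) against normal lung. Mki67, which coats mitotic chromosomes and whose protein is the usual stain for cycling cells, had 112, 141 and 177 CPM in tumors, 12.8, 7.21, 18.3 and 10.7 CPM in tumor-bearing lungs and 20.9, 7.03, 13.2 and 12 CPM in normal lungs. No tumor overlapped a lung library in either gene, and Mki67 rose by 3.85 (SE 0.44, adjusted p = 2.65e-05) against tumor-bearing lung and 3.68 (SE 0.41, adjusted p = 1.93e-05) against normal lung.

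**Figure D3:**
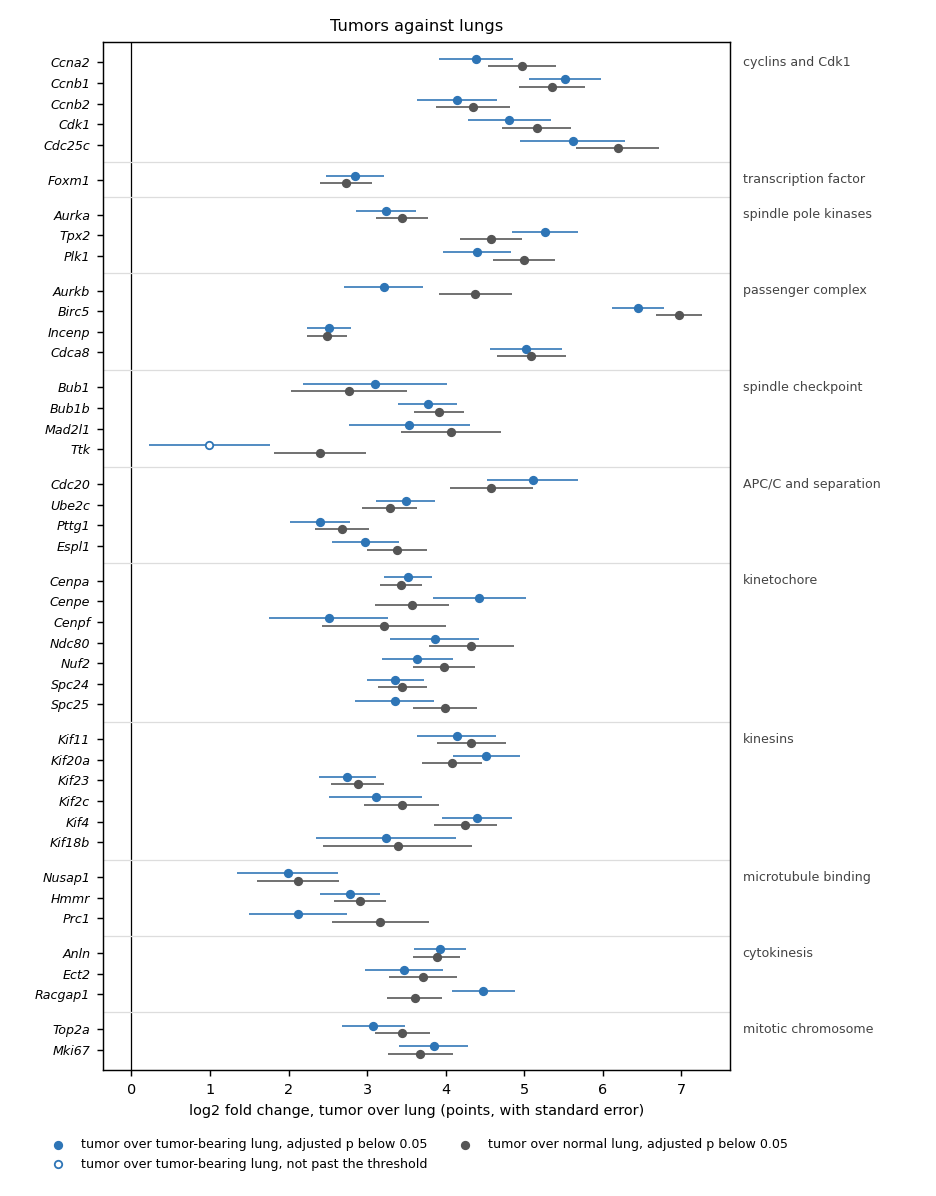
Log2 fold change with standard error of each member in tumors over tumor-bearing lungs (blue) and over normal lungs (grey), from 1 edgeR fit of 11 libraries, with genes grouped by role. Filled points passed an adjusted p of 0.05, the open point is Ttk (0.99 over tumor-bearing lung), and Birc5 lies farthest right at 6.45 and 6.97.

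The 3 tumors agreed in the sum of the members but not in each of them. Relative to the mean of the other tumors on the log2 scale, the tumor of mouse 6877 was higher in 23 members and lower in 19, from 1.30 in Nuf2 to -1.09 in Cenpf. The tumor of mouse 6881 was lower in 29 of the 42, with a median of -0.17, and the tumor of mouse 6880 was higher in 28, with a median of 0.10. The differences went with transcript length, with opposite signs in the tumors of mice 6877 and 6881. Length is taken here as that implied by the ratio of the deposited counts to TPM. Each tumor enters the mean that the others are set against, so these opposite signs are linked by construction and are not 2 separate findings. Over the 42 members the Spearman rho of difference and length was -0.45 in the tumor of mouse 6877, 0.04 in that of mouse 6880 and 0.49 in that of mouse 6881, against -0.24, 0.21 and 0.03 over all 18078 genes compared, and the points share 3 libraries of unlike depth. In the tumor of mouse 6877 the 5 longest members by this measure, Mki67, Espl1, Anln, Cenpf and Kif11, were at log2 differences of -0.49, -0.55, -0.21, -1.09 and -0.12. Not every member followed length: Nuf2 and Kif4, both longer than the median member, were at 1.30 and 0.66 there, and the shorter Kif2c and Mad2l1 at -0.25 and -0.35. Mad2l1 is short by this measure, though its longest annotated transcript has 7557 bases. Fragmentation of RNA before library preparation differed with RNA quality, per the labels' protocols, and the sources used here do not give the quality of each library, so its part in these differences was not tested.

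Other genes of the same processes were mostly higher in tumors as well. Of 30 further kinetochore and centromere genes, 25 rose and 0 fell against tumor-bearing lung, and 28 rose and 0 fell against normal lung; of 29 further spindle and motor genes, 23 and 27 rose and 0 fell; of 32 further mitotic regulators, 26 and 27 rose and 0 fell. Their medians against normal lung were 2.89, 3.56 and 2.53 on the log2 scale. Of all genes tested, 22.6% rose and 23.7% fell against tumor-bearing lung, and 24.5% rose and 24.7% fell against normal lung. These shares stand beside the counts of all lists below as well. By the smallest p, the examples were Cenpw, a centromere protein (4.75, SE 0.42), Tacc3, which bundles kinetochore microtubules (3.98, SE 0.33), and Pbk, a mitotic kinase (6.43, SE 0.45), all against normal lung. The 2 kinetochore genes that did not pass against normal lung were Zw10 (-0.0054) and Mis12 (0.0054), named after their values were seen. The regulators that did not pass there were Anapc1, a core subunit of the anaphase promoting complex (0.099), Cdc27, another one (0.41), Cdc25b (0.30), Mad1l1 (0.76) and Wee1, the kinase that restrains Cdk1 (-0.09), also named after their values were seen.

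Genes of G1/S and DNA replication followed the same pattern, with 39 of 41 higher against tumor-bearing lung, 40 of 41 against normal lung and 0 lower. Their median was 2.64 against normal lung, below the 3.70 of the mitotic members, a difference that was not tested. Tk1 and Tyms, enzymes of thymidine nucleotide synthesis, rose by 3.72 (SE 0.26) and 4.0 (SE 0.29), and Mcm6, a subunit of the replicative helicase, by 3.81 (SE 0.30).

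Condensin and cohesin genes were mixed, with 9 of 18 higher and 2 lower against each lung group. Condensin subunits led the rise against normal lung, with Ncapg at 3.52 (SE 0.40), Smc2 at 3.33 (SE 0.50), Ncapd2 at 3.30 (SE 0.36) and Ncapg2 at 2.84 (SE 0.28). The 2 that fell, named after their values were seen, were Nipbl, which loads cohesin (-0.70, SE 0.17), and Wapl, which releases it (-0.84, SE 0.24). Of the core cohesin genes, Rad21 rose by 0.85 (SE 0.18) against normal lung. Smc3 was at 0.42 (adjusted p = 0.0986) against normal lung and rose by 0.62 (adjusted p = 0.0372) against tumor-bearing lung, and Smc1a passed in neither comparison, at -0.33 against tumor-bearing lung and -0.29 against normal lung (adjusted p = 0.428 and 0.463).

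The regulators upstream of the cycle moved in both directions, with more rises than falls in each of 2 lists. The median log2 fold change against normal lung was 0.73 for the E2f, Rb and DREAM genes and 0.58 for the Cdk inhibitors and D cyclins. Of 20 E2f, Rb and DREAM genes, 9 rose and 3 fell against tumor-bearing lung, and 10 rose and 3 fell against normal lung. E2f1, the activator of S phase genes, rose by 2.34 (SE 0.24), its partner Tfdp1 by 1.93 (SE 0.19) and Mybl2, the partner of the MuvB core, by 3.31 (SE 0.36) against normal lung, while Tfdp2 fell by 1.70 (SE 0.29). Of 19 Cdk inhibitors, D cyclins and related genes, 7 rose and 5 fell against tumor-bearing lung, and 9 rose and 5 fell against normal lung. Cdkn2a, which encodes the inhibitors p16Ink4a and p19Arf, averaged 73.6 ± 14.7 CPM in tumors (SD, n = 3), 1.96 ± 0.378 CPM in tumor-bearing lungs and 2.11 ± 0.578 CPM in normal lungs (SD, n = 4 each). Its log2 fold change of 5.08 (SE 0.30) against normal lung stood between those of Plk1 and Cdk1. Cdkn1c, the inhibitor p57, went the other way, with 0.21 ± 0.197 CPM in tumors, 23.7 ± 3.67 CPM in tumor-bearing lungs and 27.5 ± 8.86 CPM in normal lungs (log2 fold change -6.73, SE 0.49, against normal lung). Cdk4, the kinase of the D cyclins, rose by 2.49 (SE 0.23) and Trp53 by 1.80 (SE 0.21). The D cyclins split, as seen after their values were known: Ccnd1 rose by 1.60 (SE 0.21), Ccnd2 fell by 3.46 (SE 0.56) and Ccnd3 was at -0.17 (adjusted p = 0.438), all against normal lung.

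Relatives of the members with roles outside mitosis were spread around 0. Of 20 such genes, 4 rose and 6 fell against tumor-bearing lung, and 5 rose and 6 fell against normal lung, where the median was -0.062 and the range -4.01 to 1.39. By the smallest p, the examples against normal lung were Foxo3 (-1.28, SE 0.23), Cdk5 (1.39, SE 0.28), Foxk1 (-0.81, SE 0.19) and Kif1b (-0.86, SE 0.20). Top2b, the sister gene of Top2a, is given outside that rule, with its values known. It had a log2 fold change of -0.016 (SE 0.21, adjusted p = 0.957) against tumor-bearing lung and -0.027 (SE 0.18, adjusted p = 0.917) against normal lung. The lists of this paragraph and the 4 before it overlap in Mybl2, which stands in 2 of them.

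**Figure D4:**
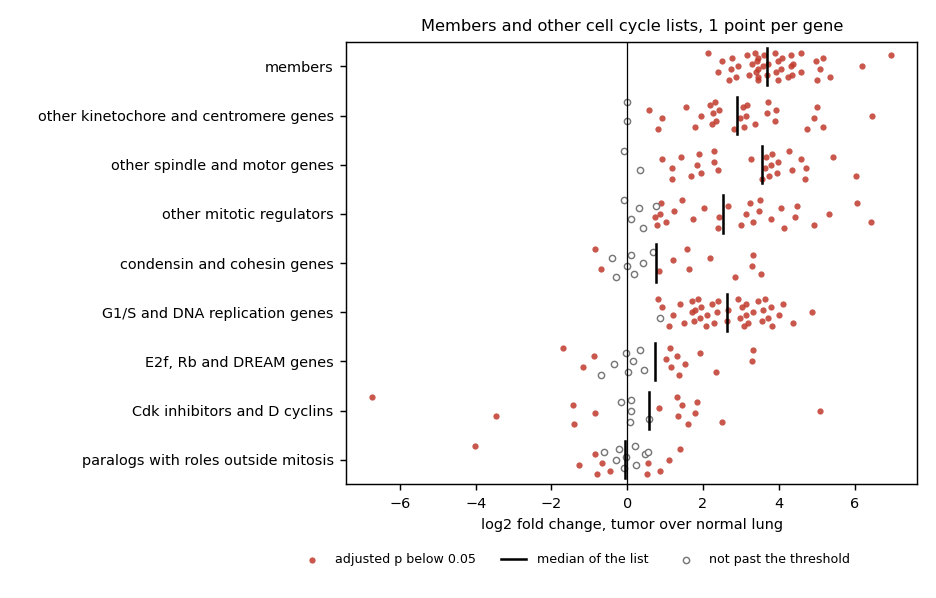
Log2 fold change in tumors over normal lungs of each gene of the members and of 8 further lists, 1 point per gene, with the median of each list as a black bar and genes not past an adjusted p of 0.05 as open points. The members lie between 2.12 and 6.97 with a median of 3.70, and the relatives outside mitosis are centred near 0 (median -0.062).

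The lungs of tumor-bearing mice were then set against normal lungs, the comparison that asks what a distal tumor does to the lung. No member passed the test. Of the 42, 39 passed the filter on low counts (Cdc25c, Ndc80 and Kif18b did not), and 0 were called by edgeR, with a smallest adjusted p of 0.281; voom and DESeq2 also called 0. Of all 16727 genes tested, 0.0120% were called higher and 0.0239% lower. The median log2 fold change of the 39 was 0.17, with 25 above 0 and 14 below, where 51.5% of all genes tested were above 0 and their median was 0.014. The standard errors ran from 0.24 in Incenp to 0.79 in Bub1 with a median of 0.40. Even Aurkb, at 1.17 (SE 0.41), did not pass, so differences of about that size could go undetected at this depth and number of mice.

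At an unadjusted p below 0.05 there were 2 of the 39, where 14.0% of all genes tested were. Aurkb was at 2.13, 1.99, 1.48 and 1.01 CPM in tumor-bearing lungs and 0.614, 1.19, 0.799 and 0.456 CPM in normal lungs, with a log2 fold change of 1.17 (SE 0.41, adjusted p = 0.281). Every tumor-bearing lung but that of mouse 6881 lay above every normal lung used in the fit. The batch 2 library of normal mouse 6886, which was not used there, had 1.41 CPM. Racgap1 was at 3.38, 1.49, 2.96 and 3.91 CPM in tumor-bearing lungs and 7.67, 3.73, 4.17 and 6.02 CPM in normal lungs, with a log2 fold change of -0.87 (SE 0.35, adjusted p = 0.324), and the groups overlapped in 1 library of each. Within batch 1 alone, or without the normal lung of mouse 6886, Aurkb and Racgap1 did not have an unadjusted p below 0.05 in edgeR. Ttk had the largest positive value, 1.37 (SE 0.68, adjusted p = 0.402), and Prc1 came next to Aurkb with 1.05 (SE 0.56, adjusted p = 0.432); neither had an unadjusted p below 0.05. Among the lists, 0 genes were called in any of the 3 further mitotic lists or among the replication genes, and their medians were 0.046 (kinetochore), 0.21 (spindle and motor), 0.12 (regulators) and 0.027 (replication).

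**Figure D5:**
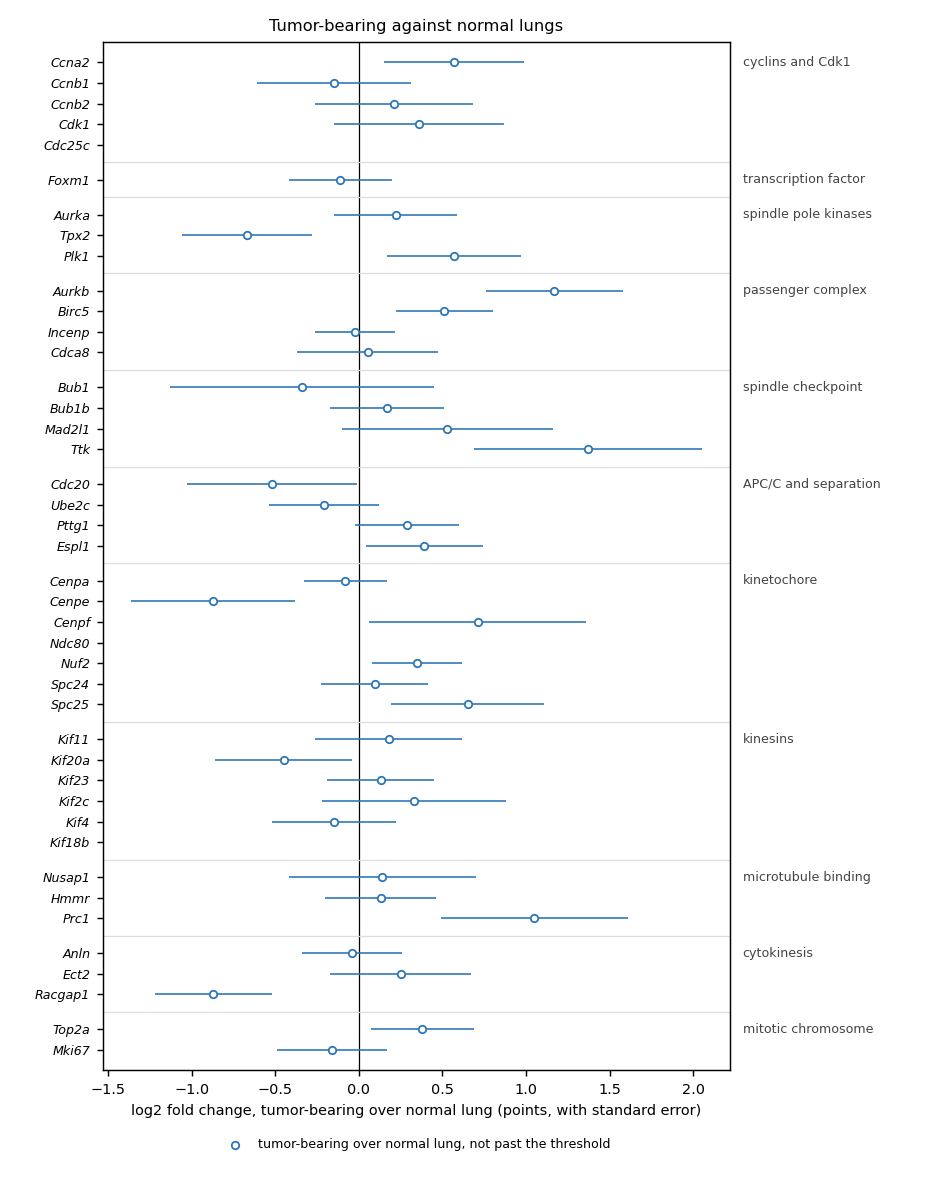
Log2 fold change with standard error of the 39 members measured in tumor-bearing over normal lungs, from an edgeR fit of 8 lungs with preparation batch as a term. All points are open, since none passed an adjusted p of 0.05, and they lie on both sides of 0, between -0.87 and 1.37.

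The sign of the members' median in lungs was not the same under every setting. Within batch 1 the median was 0.22, and within batch 2, which holds 1 tumor-bearing lung, it was 0.085. Without the normal lung of mouse 6888 it was -0.015. On log2(TPM + 0.1) it was -0.24, but on that scale the median of all genes tested was -0.54. Mice 6886 and 6888 were prepared in both batches, so their repeat libraries differ by batch as well as by library. Batch 1 minus batch 2 had a median over the members of -0.028 in mouse 6886, from -1.89 in Kif2c to 1.98 in Cdc20, and of -0.23 in mouse 6888, from -1.66 in Kif2c to 0.90 in Aurkb. These extremes over all members are differences of single libraries, batch included. The values of Aurkb and Racgap1 above are differences of groups after the batch term, so the sizes are not directly comparable. Marker genes of other cell types are given beside these values. Neutrophil markers summed to 7.57 to 31.5 TPM in tumor-bearing lungs and 3.24 to 14.8 TPM in normal lungs. Erythroid precursor markers summed to 1.74 to 9.26 TPM in tumor-bearing lungs and 7.06 to 17 TPM in normal lungs. These sums are on the TPM scale, whose median over all genes was itself lower in tumor-bearing lungs. Alas2 carried most of the erythroid sum, at 1.34 to 6.5 TPM in tumor-bearing lungs and 5.44 to 14.5 TPM in normal lungs. Gata1 and Klf1 were at most 0.0474 and 0.02 TPM in any lung library. These 3 genes were named after their values were seen. In the edgeR fit none of 8 neutrophil markers measured passed (median 2.24, with 7 at an unadjusted p below 0.05), and none of 5 erythroid precursor markers did (median -0.13, with 0 at an unadjusted p below 0.05). Neutrophil progenitor markers, genes of cells that divide, were at or near 0 in both lung groups, with sums of 0.00427 to 0.0592 TPM in tumor-bearing lungs and 0.0483 to 0.104 TPM in normal lungs. Elane, Ctsg, Ms4a3 and Fcnb were at 0 in all tumor-bearing lungs, and Ms4a3 and Fcnb at 0 in all normal lungs. The mammary epithelial and luminal markers, part of which lung epithelium also expresses, summed to 12.3 to 27.9 TPM in tumor-bearing lungs and 23.4 to 60.4 TPM in normal lungs. Csn3, a milk protein gene of that list at 329 ± 69.3 CPM in tumors (SD, n = 3), was at 0.99 ± 0.432 CPM in tumor-bearing lungs and 0.491 ± 0.337 CPM in normal lungs (SD, n = 4 each). It is 1 gene of the list, named after its values were seen. In the edgeR fit of the lungs none of 11 genes of that list measured passed, with 5 above 0 and 6 below. Their median was -0.11, and 1 had an unadjusted p below 0.05. The part of neutrophils and erythroid precursors in the lung values was not tested.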

How the data were processed

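Total RNA of 20 mg of snap-frozen tissue was depleted of ribosomal RNA and sequenced as single reads of 75 bases, per the labels' protocols. Salmon (its version is not given), DESeq2 1.18.1 and mm10 are the tools and build in the submitters' processing notes. The estimated counts and the TPM are those the authors deposited, in 1 table each for 13 libraries, with 0 columns of no sample. For each of 17718 genes, the deposited estimated counts equalled TPM times a length averaged over libraries and a factor of each library (largest log2 deviation 1.13e-12); they were rounded to whole numbers for the fits. Of 46679 gene IDs, 46269 were named from GENCODE M21 (GRCm38) and reference tables.

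edgeR 4.0.16 under R 4.3.3 (quasi-likelihood, TMM, filterByExpr) fitted group and preparation batch over 11 libraries for tumors and 8 lungs for tumor-bearing against normal lung; for mice 6886 and 6888 the batch 1 library was used. The Benjamini-Hochberg threshold was 0.05 over all genes tested, and the mouse was the replicate. Alternatives used limma 3.58.1 and DESeq2 1.42.0, other scalings, filters and units, and left out single libraries. The scripts were tested on simulated data. The means and SDs of normal lungs use 4 mice. CPM use TMM-scaled library sizes, and log2 CPM a prior count of 2.

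The members and gene lists were chosen with earlier results of these data known. Named members are the 2 with the highest mean TPM per role (21 in all) and those with an extreme change, spread or level; from other lists, up to 4 genes with the smallest p against normal lung. In 12 members (Ccna2, Cdc25c, Foxm1, Plk1, Cdca8, Cdc20, Ube2c, Kif20a, Kif4, Nusap1, Prc1 and Top2a) exons overlap another gene; whether the counting used strand is not given in the sources used here, so these counts are uncertain. Tumor and lung of mice 6877, 6880 and 6881 are paired by animal; their residuals correlated by 0.179, 0.0355 and -0.133 over 18297 genes. Of the marker genes listed, 1 (Ahsp) was not matched.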

Additional observations from a re-analysis of the deposited data

Results flagged for a closer look

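Within groups of 4 mice, Dixon's test was applied to the 21 named members and to the members' mean in each lung group, 44 groups of values in all, and chance flags about 1 in 20 such groups. Spc25 stood apart in the normal lung of mouse 6888, at 0.444 CPM, where the other normal lungs had 0.997 to 1.1 CPM. The batch 2 library of that mouse had 1.32 CPM of Spc25. Nusap1 stood apart in the tumor-bearing lung of mouse 6881, at 1.45 CPM, where the other tumor-bearing lungs had 3.29 to 3.6 CPM.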

How the results depend on the processing

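All 42 members were higher in tumors than in normal lung under each scaling, filter, unit, tool and batch alternative, and 41 to 42 when 1 library was left out (median log2 fold change 3.65 to 3.93). Against tumor-bearing lung, 39 to 42 were higher under the alternatives and 39 to 41 when 1 library was left out (medians 3.50 to 3.72). With mouse as a replicate block, the paired fits called 42 (fixed block, median 3.59, and random block, median 3.49), so that Ttk also passed and no other call of a member changed. These fits used all 13 libraries, so the part of the block was not separated from that of the added libraries. Against normal lung the random block gave 42 and a median of 3.76, and for tumor-bearing against normal lung 0 and a median of 0.16. The medians of tumors over normal and tumor-bearing lung were 1.01 and 1.06 on log2(TPM + 1), and 2.64 and 2.83 on log2(TPM + 0.1), where a pseudocount compresses the change of low genes. With the batch 2 library of mice 6886 and 6888 the median against tumor-bearing lung was 3.92, with 39 called. Within batch 2 alone the median was 3.94, given without a test. Both values rest on the tumor-bearing lung of mouse 6877 alone, which is assumed to vary like the other groups, and the cause was not tested. For tumor-bearing against normal lung, 0 members were called under all settings, and the median ran from -0.015 to 0.31 when 1 library was left out and was -0.24 on log2(TPM + 0.1), where that of all genes was -0.54; with library totals alone the median of all genes was -0.13. Low lung counts limit the precision of single members.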
